A study of Rattus norvegicus with 30 samples.

Results

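The 200 genes described here were raised in rat median nerve tissue at every sampled day after repair, and had fallen by less than 2-fold from day 7 to day 21. They were chosen on the measured values themselves from a table of 32545 genes, of which 24297 had any counts. The level of a gene was the group mean of log2(CPM + 1), where CPM is the count scaled to the library's total, and d is that level minus the level in control nerve. A gene entered when d was at least 1 at day 7 of both repairs and its level fell by less than 1 (2-fold) from day 7 to day 21 in both. The first criterion was met by 2300 genes and both criteria by 1408. Those 1408 were ranked by their smallest d over the 6 repair groups, and the 200 highest were taken.

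Gene expression had been measured by sequencing of poly(A) RNA in 30 samples from adult female wild-type rats. In 25 of them the median nerve had been cut, leaving 8 mm between the stumps, and a 10 mm chitosan conduit, a tube of a chitin-derived polysaccharide, had been sewn in. Immediate repair placed the conduit directly after the cut, with 4, 4 and 5 samples at days 7, 14 and 21. Delayed repair placed it when the injury had stood for 3 months, with 5, 4 and 3 samples at the same days. The 5 controls were healthy, untreated median nerve. The labels give no strain and no batch, and do not say that each replicate was a separate animal, so the spread between replicates may be technical in part.

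A cut peripheral nerve that is bridged by an empty tube is rebuilt from a fibrin cable, which is entered by macrophages, fibroblasts, endothelial cells and Schwann cells before axons grow across it. Macrophages clear debris and signal to the other cells, fibroblasts lay down collagen and other matrix, and Schwann cells leave their myelinating state and guide regrowing axons. The bridge therefore holds another mix of cells than intact nerve, and in bulk RNA a larger share of one cell type cannot be told apart from more RNA per cell.

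The count table names genes by Ensembl identifier alone, and 0 of the 32545 identifiers, members included, matched the symbol table used here. No member is therefore given a name, a function or a place in the genome, and neither the tissue label nor any pathway list was checked against marker genes. Members are called by their rank in the list, and 4 identifiers are printed.

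Total counts per library lay between 11958242 and 17334752. A few libraries correlated least with the rest of their group over all genes with counts (mean Pearson r on log2(CPM + 1)): 0.928 for delayed day 7 replicate 5, 0.949 for delayed day 7 replicate 1, 0.951 for immediate day 7 replicate 4 and 0.958 for immediate day 21 replicate 4. In the other 26 libraries the value lay between 0.963 and 0.992. Replicate 5 of delayed day 7 and replicate 4 of immediate day 21 were left out together as an alternative: 163 of the 200 genes were then still in the list, and the median d of the members was 3.20 instead of 3.25 in immediate day 21 and 3.31 instead of 3.29 in delayed day 7. Delayed day 7 replicate 1 and immediate day 7 replicate 4 had a lower r than immediate day 21 replicate 4, but were left out only singly. The list then kept 193 and 172 of the 200 genes.

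The members stood about 10-fold above control nerve in all 6 repair groups, and this height, which the rule selected for, is given as a description only. After immediate repair the median d was 3.36, 3.47 and 3.25 at days 7, 14 and 21, which on the log2(CPM + 1) scale are folds of 10.3, 11.0 and 9.49. After delayed repair the medians were 3.29, 3.49 and 3.42, or folds of 9.76, 11.2 and 10.7. No group median stood far from the others, as a rule that limits the fall favours. Over all 24297 genes with counts, the median d ranged from 0.0 to 0.02.

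**Figure D1:**
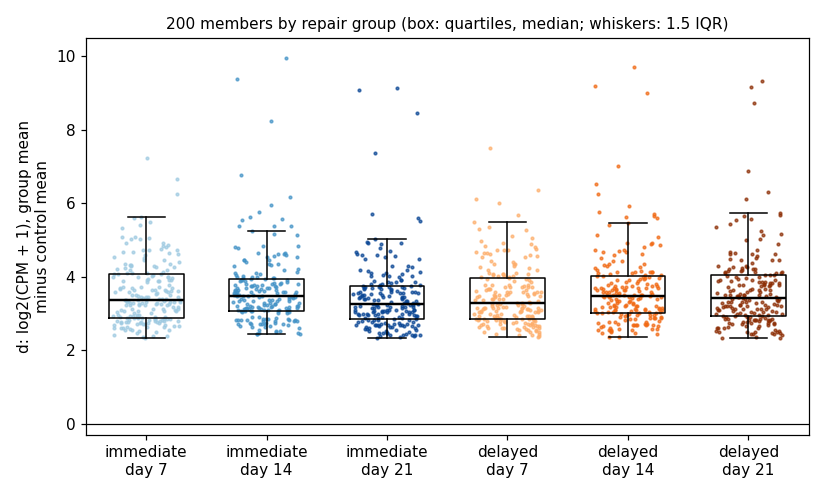
Each point is 1 of the 200 members, placed by repair group (x axis) and by d, the group mean of log2(CPM + 1) minus that of control nerve (y axis); boxes show quartiles and median. The medians lie between 3.25 and 3.49, no point is below 2.33, and the few points above 8 appear from day 14 onwards.

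The smallest d of a member ran from 7.21 at rank 1 to 2.34 at rank 200, with a median of 2.90. The gene just outside the list had 2.33, and 23 members lay within 0.1 of the last one, so the lower edge is a cut through a continuous range. The smallest d was at least 3 in 90 members, at least 4 in 19 and at least 5 in 4. At the other limit of the rule, 25 members had fallen by between 0.9 and 1 from day 7 to day 21 in at least 1 repair.

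Most members were scarce in control nerve. Their mean CPM there ranged from 0.0146 to 1703 with a median of 1.44, and 83 members were below 1 CPM while 3 reached 100. In the repair libraries the mean CPM of a member ranged from 7.75 to 14991 with a median of 33.2, and 44 members reached 100. Because 1 CPM is added before taking logs, d understates the ratio of members that were near 0 in control nerve.

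Together the members made up 0.293% ± 0.035 (SD, n = 5) of the counts in control libraries. Their share was 3.70% ± 0.82 (n = 4), 4.19% ± 0.54 (n = 4) and 3.45% ± 1.18 (n = 5) at days 7, 14 and 21 of immediate repair. After delayed repair it was 3.28% ± 0.88 (n = 5), 3.64% ± 0.59 (n = 4) and 4.71% ± 1.47 (n = 3). The ranges of the repair groups overlap, whereas the highest control library, at 0.348%, is far below the lowest repair library, at 2.00%. A single member, rank 132, carried much of this, and without it the share was 0.123% in control nerve and between 2.01% and 2.47% in the means of the repair groups.

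**Figure D2:**
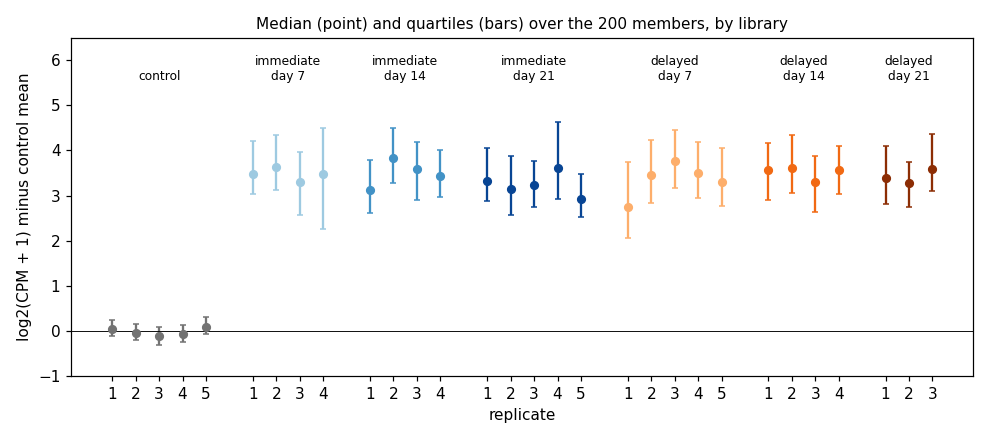
The x axis gives the 30 libraries by group and replicate and the y axis log2(CPM + 1) minus the control mean; points are the median over the 200 members and bars the quartiles. Control libraries lie between -0.11 and 0.10, and repair libraries between 2.74 (delayed day 7 replicate 1) and 3.84 (immediate day 14 replicate 2).

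The single libraries show the same separation. All 25 repair libraries lay above all 5 control libraries in 191 members, beside 11.9% of all genes tested, a contrast on which the members were selected. Of the 9 members with overlap, 8 overlapped at day 7. Overlap came from few libraries: 6 members were at or below their highest control library in immediate day 7 replicate 4 and 5 in delayed day 7 replicate 1, against at most 1 in every other repair library. Rank 65, picked out after its values were seen, was at 4.92 CPM in immediate and 2.26 CPM in delayed day 14 replicate 3, near the 2.94 to 7.46 CPM of control nerve, while the other day 14 libraries held 90.0 to 232 CPM. All 200 members passed the filter on low counts, and in edgeR's quasi-likelihood test 200 of 200 were higher than control in each group. The same call was made for 30.2%, 26.1% and 24.8% of the 16015 genes tested at days 7, 14 and 21 of immediate repair, and for 31.5%, 26.2% and 23.1% after delayed repair. These counts repeat the choice of the members and are no evidence for it.

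The member ranked first, ENSRNOG00000030187, was listed with 0 counts in 4 control libraries and with 0.267 CPM in control replicate 4. At day 7 it was at 103, 370.2, 445 and 33.0 CPM after immediate repair and at 445, 198, 169.5, 51.5 and 316 CPM after delayed repair. At day 21 the 5 immediate libraries held 2225, 407, 386, 162 and 120.4 CPM and the 3 delayed ones 324, 307 and 2163 CPM. No repair library came near the control values, but within each day 21 group 1 library stood more than 5-fold above the others. The difference between the repairs at day 21 was 0.61 ± 0.85 (SE) on the log2 scale (edgeR, adjusted p = 1).

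The second-ranked gene, ENSRNOG00000025691, was measurable in every control library, at 1.02, 1.10, 1.32, 1.07 and 1.82 CPM. Immediate repair libraries held 127, 117, 186 and 299 CPM at day 7, and delayed ones 195.1, 133, 175, 129 and 143 CPM. Its group levels were highest at day 7 in both repairs, whereas those of rank 1 were lowest then. By day 21 the values were 329, 69.0, 77.3, 164 and 50.99 CPM after immediate repair and 108, 61.2 and 229.7 CPM after delayed repair. The 2 repairs overlapped on every day, and the day 7 difference was -0.23 ± 0.47 (SE, adjusted p = 1).

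The most abundant members differed in how far they rose. Rank 132, the most abundant, was already at 1156 to 2114 CPM in control nerve. It averaged 14766, 17356 and 12836 CPM at days 7, 14 and 21 of immediate repair, and 12777, 12798 and 22348 CPM of delayed repair. Rank 8 rose from 105 ± 28.8 CPM (SD, n = 5) in control nerve to group means between 2934 and 4889 CPM. For both, the highest group mean was at day 21 of delayed repair, where the 3 libraries of rank 132 held 30960.4, 12252 and 23832 CPM. Those values overlap the 7412 to 21158 CPM of the 5 immediate libraries, and the difference of 0.90 ± 0.43 (SE) did not pass (edgeR, adjusted p = 0.868).

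Held levels were the usual time course, within what the rule allowed. In 141 members (70.5%) the 6 group levels lay within a 2-fold range, and the median range was 0.88 on the log2 scale. This count was 105 when delayed day 7 replicate 5 and immediate day 21 replicate 4 were left out together. Between day 7 and day 21, 93 members were lower and 63 higher in both repairs. The highest of the 3 days was day 7 in both repairs for 74 members, day 14 for 59 and day 21 for 5.

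**Figure D3:**
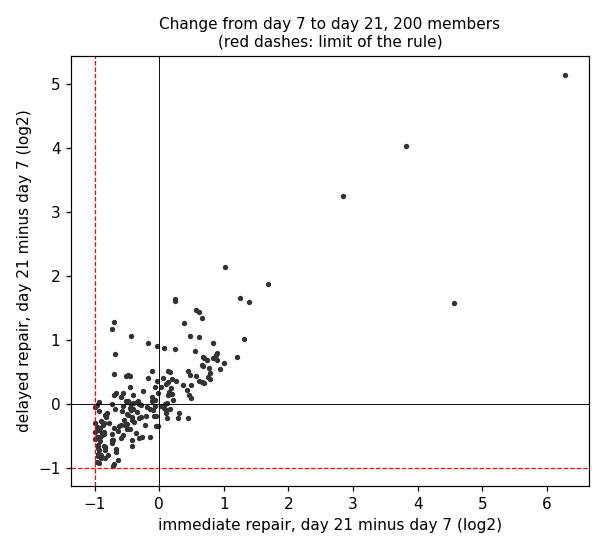
Each of the 200 points is a member, with its change in level from day 7 to day 21 after immediate repair on the x axis and after delayed repair on the y axis, in log2 units; red dashes mark the limit of -1 in the rule. The points crowd against the limit on the left, 9 members rose at least 2-fold in both repairs, and the member farthest to the right (rank 110) rose by 6.28 and 5.14.

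The steps between days were small at the median, and whether these medians differed between the repairs was not tested. Gene by gene, 0 members passed the repair-by-day test, beside 0% of all genes tested. After immediate repair the median member changed by -0.15 from day 7 to 14 and by -0.20 from day 14 to 21, with 156 of 200 members lower in the second step. After delayed repair the steps were 0.05 and -0.11, with 125 members lower in the second. As a comparison, the 892 genes that met the day 7 criterion but fell 2-fold or more by day 21 in either repair went from a median d of 2.96 at day 7 to 1.42 at day 21 after immediate repair, and from 2.73 to 1.53 after delayed repair. Their fall lay mainly before day 14, with medians of 1.71 and 1.66 then. These genes were set apart by the fall in these same values, so the fall is a description only. A choice on high day 7 levels also favours a drop soon after day 7. Scaling by TMM factors in place of column sums shifts the levels of a group against control by -0.14 at day 14 and -0.19 at day 21 of immediate repair, by -0.14 and -0.08 of delayed repair, and by at most 0.01 at day 7. With that scaling the median steps were -0.31 and -0.245 after immediate and -0.11 and -0.05 after delayed repair, so the first delayed step changes sign. Also, 114 members were lower and 49 higher at day 21 than at day 7 in both repairs, so counts of small steps rest in part on the scaling.

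A late-climbing group of 14 members rose at least 2-fold from day 7 to day 14 in both repairs. Their median d went from 2.86 to 5.46 after immediate repair and from 3.14 to 5.27 after delayed repair, and stood at 4.44 and 4.88 at day 21. The reverse course, a fall of at least 2-fold from day 7 to day 14 in both repairs, was seen in 0 members. The rule limits falls by day 21 but not rises, so nothing is read from that 0. Leaving out delayed day 7 replicate 3 raised the count of late climbers to 23.

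The steepest was rank 110, at 2.24 to 17.0 CPM in control nerve. Day 7 values scattered widely: 915, 35.8, 21.9 and 3.26 CPM after immediate repair. After delayed repair they were 2.55, 4.40, 480.5, 833 and 267 CPM. At day 7, then, immediate replicate 4 and delayed replicates 1 and 2 were within the range of control nerve, while other libraries of the same group were above it. By day 14 all libraries were high, at 3414, 3832, 4109.7 and 5103 CPM after immediate repair and 2739.7, 3988, 3224 and 2703 CPM after delayed repair. At day 21 they were still at 2632 to 4638 CPM and 2337 to 2813 CPM.

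Rank 3 had the same shape from a lower start, with at most 0.441 CPM in a control library. At day 7 it held 412, 188, 18.5 and 1.76 CPM after immediate repair, and 1.97, 10.8, 223, 369 and 55.5 CPM after delayed repair. The low libraries were again immediate replicate 4 and delayed replicates 1 and 2. At day 14 no library was below 739 CPM, with means of 1146 ± 369.9 (SD, n = 4) and 984 ± 308 (n = 4).

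The largest falls were held below 2-fold by the rule. ENSRNOG00000057141, rank 129, went from 10.7, 14.1, 16.5 and 13.9 CPM at day 7 to 10.7, 6.56, 6.40, 8.00 and 3.06 CPM at day 21 of immediate repair. After delayed repair it went from 25.4, 17.9, 12.6, 13.6 and 7.56 CPM to 9.54, 2.97 and 12.4 CPM. Day 7 and day 21 meet at 10.7 CPM in the immediate repair and overlap in the delayed one, and every value was above the highest control library, at 0.339 CPM. ENSRNOG00000000137, rank 133, fell from 32.7 ± 6.67 (SD, n = 4) to 17.0 ± 5.49 CPM (n = 5) after immediate repair and from 36.9 ± 15.4 (n = 5) to 18.6 ± 7.77 CPM (n = 3) after delayed repair, against 1.77 ± 0.61 CPM (n = 5) in control nerve. In log2 units the mean step over both repairs was -0.93 for rank 129 and -0.92 for rank 133, and neither was tested because the step was a criterion.

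Members varied more between replicates than genes in general in every group. Their spread was largest at day 7, and so was that of genes in general. The median SD of log2(CPM + 1) within a group was 0.71 in immediate day 7 and 0.61 in delayed day 7, against 0.31 and 0.36 over the 14233 genes with a mean of at least 1 CPM. It fell to 0.47 and 0.38 at day 14, and was 0.56 and 0.35 at day 21 (0.26, 0.22, 0.29 and 0.23 over all those genes). In control nerve the values were 0.29 and 0.19. The biological coefficient of variation in the edgeR fit had a median of 43.8% over members and 28.2% over all genes tested. These are descriptions, since spread depends on level and the members were picked for high levels after repair.

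**Figure D4:**
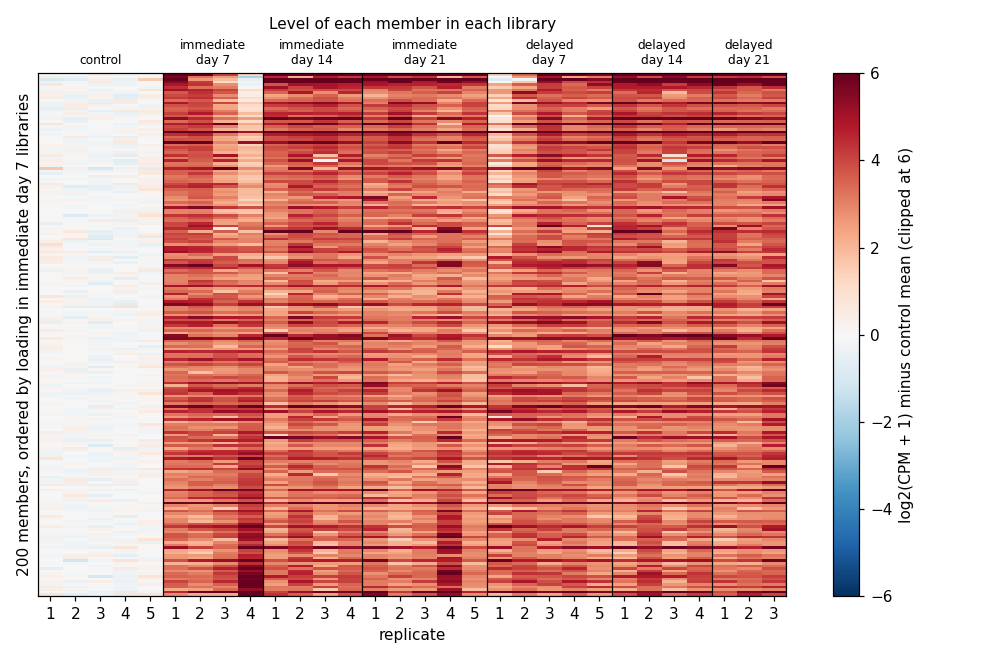
Rows are the 200 members, ordered by how they deviate together in the immediate day 7 libraries, and columns the 30 libraries by group and replicate; colour gives log2(CPM + 1) minus the control mean. The upper rows are pale in immediate day 7 replicate 4 and delayed day 7 replicate 1, and the lowest rows are darkest in immediate replicate 4 of days 7 and 21.

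Much of the scatter at day 7 lay along 1 axis, for members and for genes at large. That axis held 75.3% of the members' deviations from the group mean in the 4 immediate day 7 libraries and 66.4% in the 5 delayed ones, beside 73.2% and 62.01% over the 14233 genes. At the ends of the immediate axis were replicate 1 (score 0.47) and replicate 4 (-0.80), and at the ends of the delayed axis replicate 3 (0.41) and replicate 1 (-0.82). Across the 200 members, the weights on the axes of the separate repairs had a Pearson r of 0.71, and 152 members (76.0%) had the same sign. Over all 14233 genes r was 0.49 and the same-sign share 69.8%, so the pattern was also present in genes at large. Genes are not independent replicates, the points share libraries and depth, and no p is given.

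Split by the immediate libraries alone, 102 members had positive and 98 negative weights. In the 5 delayed day 7 libraries, which the split did not use, the median d of the 102 was 2.16, 3.26, 3.93, 3.48 and 3.42 for replicates 1 to 5. For the 98 it was 3.38, 3.68, 3.43, 3.52 and 2.96. Replicate 1 was therefore the lowest library for the first set but not for the second. Split by the delayed libraries, 142 positive members had medians of 3.65, 3.71, 3.02 and 3.01 in immediate replicates 1 to 4, and 58 negative members 3.21, 3.42, 3.77 and 4.33, so immediate replicate 4 was high in 1 set and low in the other. It held the highest value of all 9 day 7 libraries in 68 members and the lowest in 34. Delayed replicate 1 held the lowest in 75 and delayed replicate 5 in 40, while delayed replicate 3 held the highest in 40. These counts were not taken over genes at large, so they are not read as a trait of the members.

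The day 7 weights ran with the later time course. The members' weights in immediate day 7 correlated with their day 7 to day 14 step after delayed repair at r = 0.55 (0.54 over the 14233 genes). Weights in delayed day 7 correlated with the step after immediate repair at r = 0.74 (0.64 over those genes). Each pair comes from different repair libraries, although both sets of members' levels were selected by the rule. The labels give no batch, RNA quality per library or surgical detail that could be set beside this scatter, so the part of any of these was not tested.

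The difference between the repairs on a given day was not a criterion of the rule, although the levels of both repairs were. A gene near control level in either repair could not enter, but the rule set no upper limit on the difference. In edgeR's quasi-likelihood test 0, 0 and 0 members differed on days 7, 14 and 21 at an adjusted p under 0.05, and the same call was made for 0.712%, 0% and 0.05% of all genes tested. At an unadjusted p under 0.05 there were 5 members (2.5%) at day 7, 0 at day 14 and 16 (8.0%) at day 21, beside 8.44%, 1.52% and 5.69% of all genes tested. The lowest adjusted p of a member was 0.303, 1 and 0.140 on the 3 days. For a difference of the repairs that changes with the day, 0 members passed, beside 0% of all genes, with 9 (4.5%) at an unadjusted p under 0.05 beside 5.94%. DESeq2 called 0, 0 and 3 of the 199 members it gave an adjusted p on the 3 days, beside 2.15%, 0.0505% and 0.387% of all genes with one. Limma voom with quality weights called 0, 0 and 2 of 200, beside 0%, 0.0125% and 0.337%. For the change with the day both called 0 members, beside 0.727% and 0% of genes.

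A missing call is not a shown likeness, and the intervals were wide. The 95% interval of the difference lay wholly within 2-fold in 87 members (43.5%) at day 7, 86 (43.0%) at day 14 and 62 (31.0%) at day 21, against 58.6%, 59.6% and 54.8% of the genes tested. Its median half-width was 0.87, 0.92 and 0.94 on the log2 scale, so for most members the interval reached a 2-fold difference in at least 1 direction.

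More members were higher after delayed repair at day 21 than on the other days, a count with no test. The median difference, delayed minus immediate, was -0.10, -0.03 and 0.21 on days 7, 14 and 21, beside 0.04, -0.01 and -0.02 over the genes tested. Higher after delayed repair were 79, 88 and 140 of the 200, beside 9108, 7804 and 7530 of the 16015 genes tested. The day 21 count rested on single libraries: it was 92 without delayed day 21 replicate 3, and 163 without the pair of libraries that had been left out above, immediate day 21 replicate 4 among them. On the rule's own group levels it was 126. The libraries of the 2 repairs did not overlap in 0, 2 and 7 members on the 3 days, beside 0.375%, 1.9% and 4.21% of all genes tested, so the members' shares were near the background. Of these members, 1 of the 2 at day 14 and all 7 at day 21 were higher after delayed repair. The direction was not counted over all genes, so nothing is read from it.

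**Figure D5:**
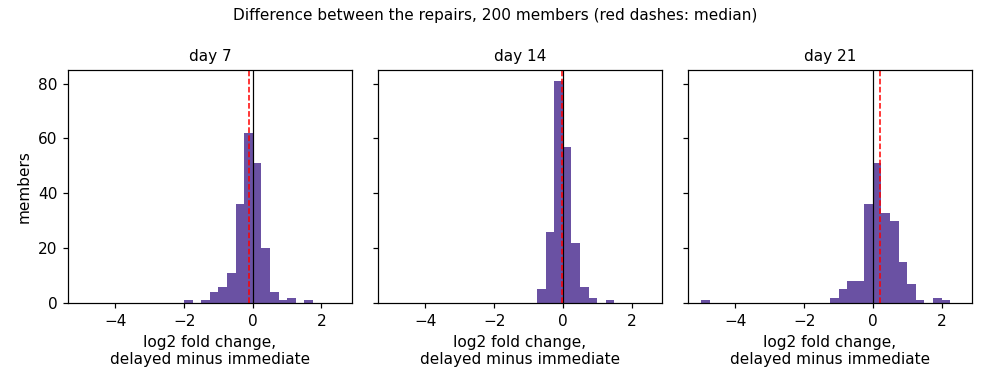
Histograms of the log2 fold change of delayed minus immediate repair (x axis) over the 200 members (y axis, number of members) at days 7, 14 and 21; the red dashes mark the medians of -0.10, -0.03 and 0.21. The day 21 panel is the widest, with 1 member (rank 112) at -4.94.

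The most divergent member, rank 112, stood out by scatter within 1 group. At day 21 the immediate libraries held 4284, 212, 53.4, 3264 and 46.1 CPM, and the delayed ones 48.9, 49.0 and 49.7 CPM. Only replicates 1, 2 and 4 of immediate repair were far above the delayed libraries, and the others lay beside them. The difference was -4.94 ± 1.43 (SE), with an adjusted p of 0.393 in edgeR and 0.00115 in DESeq2. Its control level was 0.515 to 2.50 CPM, and it was at 6.69 to 27.3 CPM in immediate and 9.03 to 41.4 CPM in delayed day 7 libraries.

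Rank 181 had the lowest p of the members at day 21 in edgeR and limma voom, and rank 112 in DESeq2. Its immediate libraries held 27.4, 31.8, 33.3, 51.3 and 22.5 CPM and its delayed libraries 147, 103 and 109.7 CPM, without overlap. The difference was 1.95 ± 0.44 (SE), with an adjusted p of 0.140 in edgeR, 0.0083 in DESeq2 and 0.00638 in limma voom. No such gap was seen at day 14, with 38.2 ± 26.2 (SD, n = 4) and 35.9 ± 8.33 CPM (n = 4). Rank 103 was similar at day 21, with 40.1, 14.1, 28.2, 19.0 and 12.7 CPM against 57.7, 55.0 and 114.8 CPM, a difference of 1.85 ± 0.45 (SE) and an adjusted p of 0.191 in edgeR, 0.0349 in DESeq2 and 0.012 in limma voom. Neither passed in the edgeR test.

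The largest differences on the other days rested on 1 library each. At day 7 rank 120 was at 11.8, 7.76, 7.80 and 139 CPM after immediate repair and at 6.24, 14.6, 8.17, 21.0 and 10.2 CPM after delayed repair, a difference of -1.80 ± 0.79 (SE, adjusted p = 0.475 in edgeR). Among its alternatives the difference ran from -2.15 to 0.42. At day 14 rank 80 was at 3.87, 42.3, 13.3 and 20.9 CPM after immediate repair and at 24.5, 137, 17.5 and 27.1 CPM after delayed repair, a difference of 1.41 ± 0.79 (adjusted p = 1). In both cases 1 library was more than 3-fold above every other library of that day.

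Rank 10 was the member most above immediate repair at both day 7 and day 21. Its control libraries held 0 to 1.15 CPM. Day 7 values were 32.7, 38.3, 89.6 and 5.18 CPM after immediate repair, and 11.4, 148, 95.0, 76.9 and 272 CPM after delayed repair, which overlap. At day 21 they were 104, 68.1, 25.8, 3.09 and 34.1 CPM against 91.7, 110.3 and 329.6 CPM, and the difference of 2.04 ± 0.91 (SE) did not pass (edgeR, adjusted p = 0.811).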

How the data were processed

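The 30 libraries were made without strand marking from poly(A) RNA, per the labels' protocols, so overlapping antisense genes cannot be told apart. The authors deposited raw counts per gene, as whole numbers in 1 table. DESeq2 1.38.3, featureCounts 1.5.0-p3 and HISAT2 2.0.5 are listed per the submitters' processing notes, without roles. The sources used here do not name the genome build, the annotation or the handling of reads shared by near-identical genes.

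Columns were matched to samples by library name. Members were found with Python 3.11.15 on CPM of column sums with a pseudocount of 1 CPM. In R 4.3.3, edgeR 4.0.16 (TMM factors, filterByExpr by group leaving 16015 genes, 1 quasi-likelihood fit of 30 libraries, Benjamini-Hochberg over all genes tested, threshold 0.05) gave tests, and SEs and 95% intervals were taken from its statistics. The fit was tested on simulated data, with genes drawn from all those tested and changed between the repairs at days 7, 14 and 21. It called 40, 46 and 35 of 100 genes changed 2-fold, and 71, 61 and 68 of 100 changed 4-fold. Changes of these sizes can therefore be missed. The rates were not taken for the members, whose median biological coefficient of variation was higher (43.8% against 28.2%). Alternatives were DESeq2 1.42.0, other scalings, filters, fits and pseudocounts, a replicate block, and leaving out each library. Limma 3.58.1 voom with quality weights, leaving out 2 libraries, the rule's own group levels and TMM-scaled steps were added after seeing the data. Replicates differed by more than sampling noise (chi-square per degree of freedom at least 14.85 in 51 pairs).

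The members and gene lists were chosen with earlier results of these data known. Lists and markers given by symbol could not be applied. The rule for naming took, by measured value, the top of the ranking, the largest time steps and repair differences, the lowest p-values and the most abundant members. It allowed at most 2 per part without symbols, and all but 4 are given by rank.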

Additional observations from a re-analysis of the deposited data

Results flagged for a closer look

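In 96 combinations of group and measure, with 4 or 5 libraries each, 4 held a library far from all the others of its group. Chance gives about 1 in 20. Control replicate 4 held 0.267 CPM of ENSRNOG00000030187, while the other 4 controls were listed at 0. Immediate day 7 replicate 3 had 2.48% of its counts on members, against 4.02% to 4.20% in the other libraries of the group, and 6242 CPM of rank 132, against 16514 to 18807 CPM. These 2 values are not separate, because rank 132 is the most abundant member. Without rank 132, however, the share in replicate 3 was still the lowest, at 1.85% against 2.32% to 2.37%. Immediate day 7 replicate 4 held 139 CPM of rank 120, against 7.76 to 11.8 CPM.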

How the results depend on the processing

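Of 720 alternative values for the counts and medians, 695 stayed near the value given and 25 moved. Near meant within a fixed ratio for counts and within the spread between libraries for medians. Many values could hardly move: a group's median d stays the same when a library of another repair group is left out. Calls against control repeat the choice of the members. The total is therefore no measure of robustness. The median delayed step from day 7 to 14, not tested, was scored as near although it changed sign with TMM scaling (-0.11). Of the 200 members, 129 were chosen again with a pseudocount of 0.1 CPM, 134 with 5 CPM, 157 with TMM scaling, 165 with group medians and 166 to 200 with 1 library left out. Median d at days 7, 14 and 21 was 4.15, 4.39 and 4.11 (immediate) and 4.15, 4.36 and 4.32 (delayed) with a pseudocount of 0.1 CPM, and 2.38, 2.39 and 2.13 (immediate) and 2.26, 2.37 and 2.34 (delayed) with 5 CPM. With 1 library left out, members up at least 2-fold from day 7 to 14 in both repairs numbered 10 to 23, members highest at day 21 in both repairs 2 to 9, and members higher after delayed repair at day 21 92 to 163. Members called between the repairs at day 7 were 0 to 1. The 1 was rank 199, without delayed day 7 replicate 3 (edgeR, adjusted p = 0.0454, log2 difference -0.39). The share of all genes called in that fit is not given here, so this call is not read as a trait of the members. At day 21 DESeq2 called 3 of 199 members, beside 0.387% of all genes with an adjusted p. Limma voom called 2 of 200 members, beside 0.337% of all genes. The cause was not tested. With the replicate number as a block, 0 members were called on each day and 0 for the change with the day. The block changed no call of a member, and the share of all genes called with it is not given here. Deviations of same-numbered samples correlated at -0.66 to -0.11 on day 7, 0.08 to 0.41 on day 14 and -0.07 to -0.02 on day 21. At day 14, 6 of 8 samples correlated best with their own number (0 of 8 at day 7, 0 of 6 at day 21), a hint from the data, not the design; 1 of the 4 pairs was under 0.1, and the numbers were not used as pairs. Members below 1 CPM in control nerve rest on few counts there, as few as 1 over 5 libraries.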
